A study of Danio rerio with 4 samples.

Results

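Oxidative phosphorylation is the process by which mitochondria pass electrons from nutrients to oxygen and use the energy to make ATP. Complex I (NADH dehydrogenase) and complex II (succinate dehydrogenase) feed electrons to ubiquinone, complex III (cytochrome bc1) hands them to cytochrome c, and complex IV (cytochrome c oxidase) reduces oxygen. Complexes I, III and IV pump protons out of the matrix, and complex V (ATP synthase) lets them flow back through a rotor to make ATP. Most subunits are encoded in the nucleus and imported, while a few core subunits are encoded by mitochondrial DNA. Heart and skeletal muscle are rich in these complexes.

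The nuclear genes of these complexes were described in zebrafish embryos in which hace1, a gene for a HECT-domain E3 ubiquitin ligase, was targeted. Genes were taken by symbol, those beginning with nduf, sdha to sdhd, uqcr, cox4 to cox8 or atp5, together with cyc1, which gave 105 of the 32512 annotated genes. Whole Tübingen wild-type embryos at 48 hours post fertilisation had received either a hace1 morpholino, an antisense oligonucleotide that blocks splicing within the part encoding the catalytic domain, or a standard control morpholino. Each group had 2 libraries, A and B, each pooled from 3 RNA samples of about 100 embryos, and 2 libraries were loaded per Ion Proton chip. The sequences of the oligonucleotides are shown because they are all that separates the groups by design.
hace1 morpholino: ccctcgaactgttagacagaataaa
standard control morpholino: cctcttacctcagttacaatttata

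Estimated gene counts summed to 9856173 in hace1 morphant library A and 10413981 in hace1 B, against 5192490 in control A and 8596019 in control B, so control A was the shallowest. The labels do not tell which libraries were run on the same chip. If those of a group were run together, chip and morpholino cannot be told apart. Nothing in the labels says that the pools came from separate clutches, so p-values measure only the spread between pooled libraries. Total hace1 RNA stood at 13.7 and 13.5 CPM (estimated counts after every library is scaled to the same size) in hace1 morphants, against 18.6 and 13.5 CPM in controls. The limma-voom adjusted p was 0.647, and since a splice-blocking oligonucleotide need not lower the total, this does not check the knock-down. In whole embryos, fewer cells of a type and less RNA per cell cannot be told apart.

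A value of 0 in all 4 libraries was given for 60 of the 105 genes (57.1%), close to the 59.3% of all annotated genes, and none of the 60 had an exon line. Counting methods can produce such zeros, so no level is read from them. Listed at 0 were 26 of 41 complex I genes, 5 of 7 complex I assembly factors, 3 of 6 complex II genes, both complex II assembly factors, 3 of 9 complex III genes, 10 of 19 complex IV genes and 11 of 21 complex V genes. Among them were the catalytic or redox subunits sdhb, uqcrfs1 (the Rieske iron-sulfur protein) and ATP5B (the catalytic beta subunit). In complex I, ndufs1, ndufs3, ndufs7, ndufs8a, ndufs8b and ndufv2 were listed at 0, all of them core subunits, while the core subunit gene ndufv1 had a value. The 13 protein genes of the mitochondrial genome were also listed at 0. Another 3 genes had counts too low to test. The complex II anchor gene sdhda had a total of 18.9 counts over the 4 libraries, cox6a2 had 35.3, and an ATP5J locus (ENSDARG00000089853) had 8.71. That left 42 genes for the comparison, 15 of complex I, 2 of its assembly factors, 2 of complex II, 6 of complex III, 8 of complex IV and 9 of complex V.

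The rule takes a few genes that are not subunits of the named complex. Ndufaf1 and ndufaf7 help to build complex I. Atp5s now carries the symbol DMAC2L, and the tested ATP5J locus (ENSDARG00000077967) the placeholder si:ch211-140m22.7. Without these 4 genes, 36 of the 38 left had a log2 fold change above 0 and their median was 0.38. The 4 genes thus set neither the main direction nor that median, but other results below include them.

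Most of the 42 tested nuclear oxidative phosphorylation genes had somewhat more RNA in hace1 morphants than in controls, and none passed the test. The log2 fold change of hace1 morphants over controls was above 0 for 40 of the 42 tested genes, against 50.5% of all 10832 tested genes. Its median was 0.37, against 0.0051 over all tested genes. With p-values adjusted by the Benjamini-Hochberg method over the whole table, limma-voom called 0 of the 42 at an adjusted p below 0.05, where it called 2.76% of all tested genes in either direction and 1.38% as higher. The smallest adjusted p among the 42 was 0.0661, that of ndufa13. At an unadjusted p below 0.05, 15 of the 42 were higher and 0 lower, against 22.4% of all tested genes in either direction and 10.7% higher. Both hace1 libraries lay above both control libraries for 25 of the 42, against 26.7% of all tested genes, and below both for 0, against 26.9%. A moderated test on log2 CPM (limma-trend) also called 0 of the 42, where it called 122 of all tested genes higher and 105 lower. It had 16 of the 42 at an unadjusted p below 0.05. The authors' log2 values gave 0 and 8. They called 1 of all tested genes higher and 0 lower, so that count of 0 says little.

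Summed over the 42 genes, the level was 11813 CPM in hace1 A and 11483 in hace1 B, against 7927 in control A and 10093 in control B. The hace1 libraries lay close together, while control A was far below control B. The means were 11648 ± 233 CPM in hace1 morphants and 9010 ± 1532 CPM in controls (SD, n = 2 libraries each), a ratio of 1.29. Measured against control A alone the ratio was 1.47, and against control B alone it was 1.15. By complex, the median log2 fold change was 0.36 for complex I, 0.47 for its assembly factors, 0.35 for complex II, 0.19 for complex III, 0.53 for complex IV and 0.38 for complex V.

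**Figure D1:**
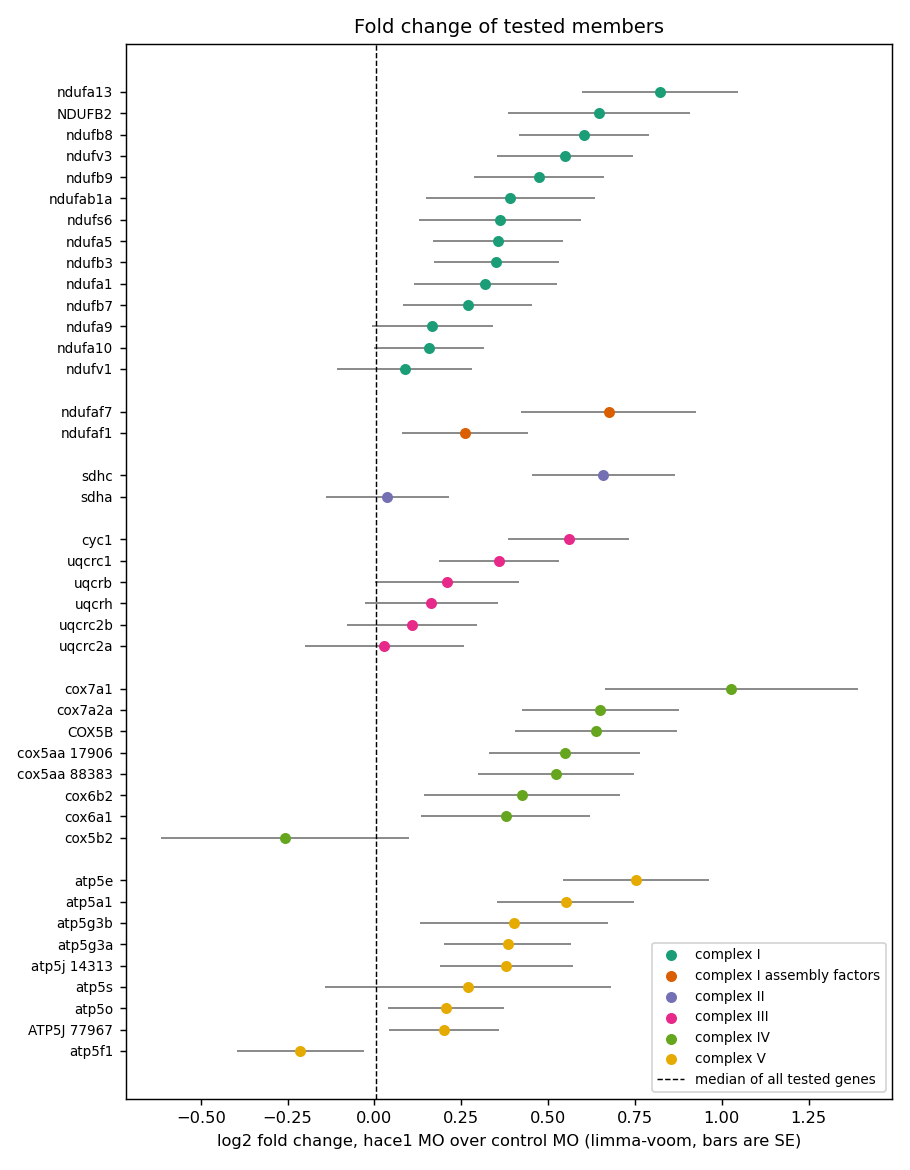
Log2 fold change of hace1 morphants over controls for 41 of the 42 tested genes, with the standard error as bars and colours for the complexes. All but cox5b2 and atp5f1 lie to the right of 0, and cox7a1 at 1.03 lies farthest right.

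Complex I, the entry point for electrons from NADH, had all 15 tested genes above 0 on the log2 scale. In 9 of them both hace1 libraries lay above both controls, against 26.7% of all tested genes. The best supported was ndufa13 (Zv9 chromosome 2, 59673089 to 59676041), an accessory subunit of the membrane arm. It had 18.3 and 21.5 CPM in hace1 A and B, against 9.37 and 12.9 CPM in control A and B. The groups did not overlap, and the log2 fold change was 0.82 ± 0.22 (SE; limma-voom adjusted p = 0.0661). Its 3 exon lines with enough counts had differences of 0.64 to 0.91. Ndufb8, an accessory subunit of the outer membrane arm, had 236 and 236 CPM in hace1 morphants, against 133 and 182 CPM in controls. The hace1 libraries were alike and above both controls, with control A lowest (log2 fold change 0.60 ± 0.19, limma-voom adjusted p = 0.0951).

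Ndufv3 (ENSDARG00000069942), an accessory subunit of the NADH-oxidising module, had 35.4 and 39.2 CPM in hace1 morphants, against 21.2 and 29.7 CPM in controls. Another locus of that symbol (ENSDARG00000090389), which carries it today, was listed at 0. Ndufb9, an outer membrane-arm subunit, had 332 and 290 CPM in hace1 morphants, against 198 and 254 CPM in controls. For NDUFB2, of the same arm, the values were 179 and 192 CPM in hace1 morphants and 84.3 and 167 CPM in controls. None of these groups overlapped, and in each gene control A was the lowest library. Their log2 fold changes were 0.55, 0.47 and 0.65, and limma-voom gave them adjusted p of 0.132, 0.161 and 0.174. The other small accessory genes ndufb3, ndufa5, ndufab1a (the mitochondrial acyl carrier protein), ndufs6, ndufa1 and ndufb7 had log2 fold changes of 0.27 to 0.39, and control A was the lowest library in each. In ndufab1a, ndufa1 and ndufb7 control B lay between the hace1 libraries, and in ndufs6 just above them. Ndufab1a had 141 and 124 CPM in hace1 morphants, against 74.5 and 137 CPM in controls.

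Some genes of larger subunits differed less. Ndufv1, the core subunit that binds NADH, had 248 and 238 CPM in hace1 morphants, against 270 and 192 CPM in controls. Control A was the highest library for this gene and control B the lowest, so the hace1 libraries lay between the controls (log2 fold change 0.087 ± 0.19). Ndufa9 and ndufa10, accessory subunits of the matrix and membrane arms, stood at 0.17 and 0.16. The assembly factor gene ndufaf7, for a mitochondrial methyltransferase, had 13.4 and 10.5 CPM in hace1 morphants, against 8.58 and 6.58 CPM in controls. Ndufaf1, for a factor that joins membrane-arm intermediates, had 37.0 and 31.8 CPM in hace1 morphants, against 31.7 and 26.2 CPM in controls. In both assembly factors the groups did not overlap and control B was the lowest library, with log2 fold changes of 0.67 ± 0.25 and 0.26 ± 0.18.

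Complex II, which is also an enzyme of the tricarboxylic acid cycle, was represented by 2 genes. Sdhc, a membrane anchor subunit, had 86.6 and 87.4 CPM in hace1 morphants, against 43.6 and 68.5 CPM in controls. Both hace1 libraries lay above both controls, and the log2 fold change was 0.66 ± 0.21 (SE; limma-voom adjusted p = 0.0958). Sdha, the flavoprotein that oxidises succinate, had 165 and 184 CPM in hace1 morphants, against 190 and 151 CPM in controls. Its groups overlapped, with control A highest and control B lowest, and the log2 fold change was 0.036 ± 0.18.

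Complex III had all 6 genes above 0. In 2 of the 6 both hace1 libraries lay above both controls, near the 26.7% of all tested genes. The complex had a median log2 fold change of 0.19. Its place among the complexes depended on the libraries used. It was the smallest median with all libraries and, at 0.37, the largest without control A. Without hace1 B it was 0.32, just above the 0.31 of complex II. Cyc1 (chromosome 6, 50332650 to 50341392), which encodes the haem protein cytochrome c1, had 473 and 524 CPM in hace1 morphants, against 326 and 350 CPM in controls. Both controls were low, by 0.61 for A and 0.51 for B on the log2 scale, and the log2 fold change was 0.56 ± 0.17 (SE; limma-voom adjusted p = 0.0958). All 17 exon lines of cyc1 with enough counts had differences above 0. The gene has 12 distinct exons over 4 transcripts, so some exons are counted more than once there. Uqcrc1, a core protein on the matrix side, had 305 and 259 CPM in hace1 morphants, against 224 and 215 CPM in controls. Its groups did not overlap and its log2 fold change was 0.36 ± 0.17.

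The paralogues uqcrc2a and uqcrc2b encode the other core protein. Uqcrc2a had 316 and 302 CPM in hace1 morphants, against 391 and 231 CPM in controls. Uqcrc2b had 182 and 167 CPM in hace1 morphants, against 188 and 138 CPM in controls. In both, control A was highest and control B lowest, with the hace1 libraries between them, and the log2 fold changes were 0.029 ± 0.23 and 0.11 ± 0.19. Uqcrb, a small subunit near a ubiquinone site, had 216 and 183 CPM in hace1 morphants, against 141 and 212 CPM in controls. Uqcrh, the acidic hinge subunit, had 292 and 239 CPM in hace1 morphants, against 208 and 269 CPM in controls. In uqcrb and uqcrh the groups overlapped and control A was lowest, with log2 fold changes of 0.21 and 0.16.

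Complex IV had a median log2 fold change of 0.53 and the widest gap between its control libraries. Without control A its median was 0.17, beside 0.18 for complex I. In that fit complex IV had 9 tested genes, since cox6a2 also passed the filter. Summed over the 8 complex IV genes tested with all libraries, the level was 2288 and 2164 CPM in hace1 morphants, against 1182 and 2081 CPM in controls. The ratio of the hace1 mean to control A was 1.88, and to control B it was 1.07. COX5B (ENSDARG00000015978), a zinc-binding subunit on the matrix side, had 649 and 623 CPM in hace1 morphants, against 319 and 532 CPM in controls. Control A was the outlying low library, and the groups did not overlap (log2 fold change 0.64 ± 0.23, limma-voom adjusted p = 0.141). Its paralogue cox5b2 was the gene with the lowest fold change of all 42, at -0.26 ± 0.36, on 5.91 and 2.97 CPM in hace1 morphants, against 4.27 and 5.57 CPM in controls. At that level the hace1 libraries were themselves the highest and the lowest.

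Cox7a1 and cox7a2a encode forms of the same small membrane subunit, the first of which is known in mammals as the form of heart and skeletal muscle. Cox7a1 (chromosome 15, 19364726 to 19367438) had 21.3 and 15.7 CPM in hace1 morphants, against 4.84 and 14.3 CPM in controls. Its log2 fold change of 1.03 ± 0.36 was the highest of the 42 genes (limma-voom adjusted p = 0.131). The difference was 1.82 against control A and 0.35 against control B. Cox7a2a had 247 and 238 CPM in hace1 morphants, against 120 and 201 CPM in controls, with a log2 fold change of 0.65 ± 0.23 and groups that did not overlap.

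The symbol cox5aa, for a subunit on the matrix side, stands on near copies at 29941849 to 29946829 and 30047197 to 30052933 of chromosome 25. The first had 149 and 182 CPM in hace1 morphants, against 90.1 and 147 CPM in controls. The second had 160 and 179 CPM in hace1 morphants, against 91.2 and 147 CPM in controls. Their counts track each other and the split of reads between them is uncertain. The second also overlaps pkmb on the other strand, and whether reads were counted by strand is not known here. Cox6a1, a regulatory subunit, had 602 and 492 CPM in hace1 morphants, against 324 and 551 CPM in controls. Cox6b2, a subunit facing the intermembrane space, had 454 and 430 CPM in hace1 morphants, against 229 and 483 CPM in controls. In both, control B lay within or above the hace1 libraries and control A at a much lower level, with log2 fold changes of 0.38 ± 0.24 and 0.43 ± 0.28.

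Among the genes with values, the 9 tested genes of complex V had the largest sum, 5259 and 5245 CPM in hace1 morphants, against 3456 and 4503 CPM in controls. Atp5a1 (chromosome 21, 5320080 to 5331830), for the alpha subunit of the catalytic head, had 2188 and 2428 CPM in hace1 morphants, against 1473 and 1688 CPM in controls. Both controls lay below both hace1 libraries, and the log2 fold change was 0.55 ± 0.20 (SE; limma-voom adjusted p = 0.134). Each of its 11 exon lines with enough counts was above 0, between 0.34 and 0.73. Atp5e, for the epsilon subunit of the central stalk, had 291 and 365 CPM in hace1 morphants, against 161 and 234 CPM in controls. Its groups did not overlap, and it had the second smallest p of the 42 genes (log2 fold change 0.75 ± 0.21, limma-voom adjusted p = 0.0712).

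Atp5g3a and atp5g3b encode subunit c, which forms the membrane rotor. Atp5g3a had 320 and 322 CPM in hace1 morphants, against 217 and 282 CPM in controls. Atp5g3b had 1563 and 1311 CPM in hace1 morphants, against 796 and 1502 CPM in controls. The groups were apart in atp5g3a and overlapped in atp5g3b, where control B lay between the hace1 libraries. The log2 fold changes were alike, at 0.38 ± 0.18 for atp5g3a and 0.40 ± 0.27 for atp5g3b. Atp5g3b overlaps lnpb on the same strand, which had 1812 counts over the 4 libraries against 45029 for atp5g3b.

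The genes of the peripheral stalk, which holds the head still, did not all point one way. Atp5j (ENSDARG00000014313), for coupling factor 6, had 203 and 178 CPM in hace1 morphants, against 125 and 172 CPM in controls. Atp5o, for the protein that joins head and stalk, had 348 and 333 CPM in hace1 morphants, against 295 and 295 CPM in controls. In both the groups did not overlap, with log2 fold changes of 0.38 ± 0.19 and 0.21 ± 0.17. Atp5f1, for subunit b, had 280 and 243 CPM in hace1 morphants, against 334 and 272 CPM in controls. Its groups overlapped and its log2 fold change was -0.21 ± 0.18, so subunit b had the only value below 0 in the complex. Atp5s was near the floor of the test at 4.39 and 2.42 CPM in hace1 morphants, against 3.79 and 2.03 CPM in controls. The tested ATP5J locus ENSDARG00000077967 stood at 0.20 ± 0.16.

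**Figure D2:**
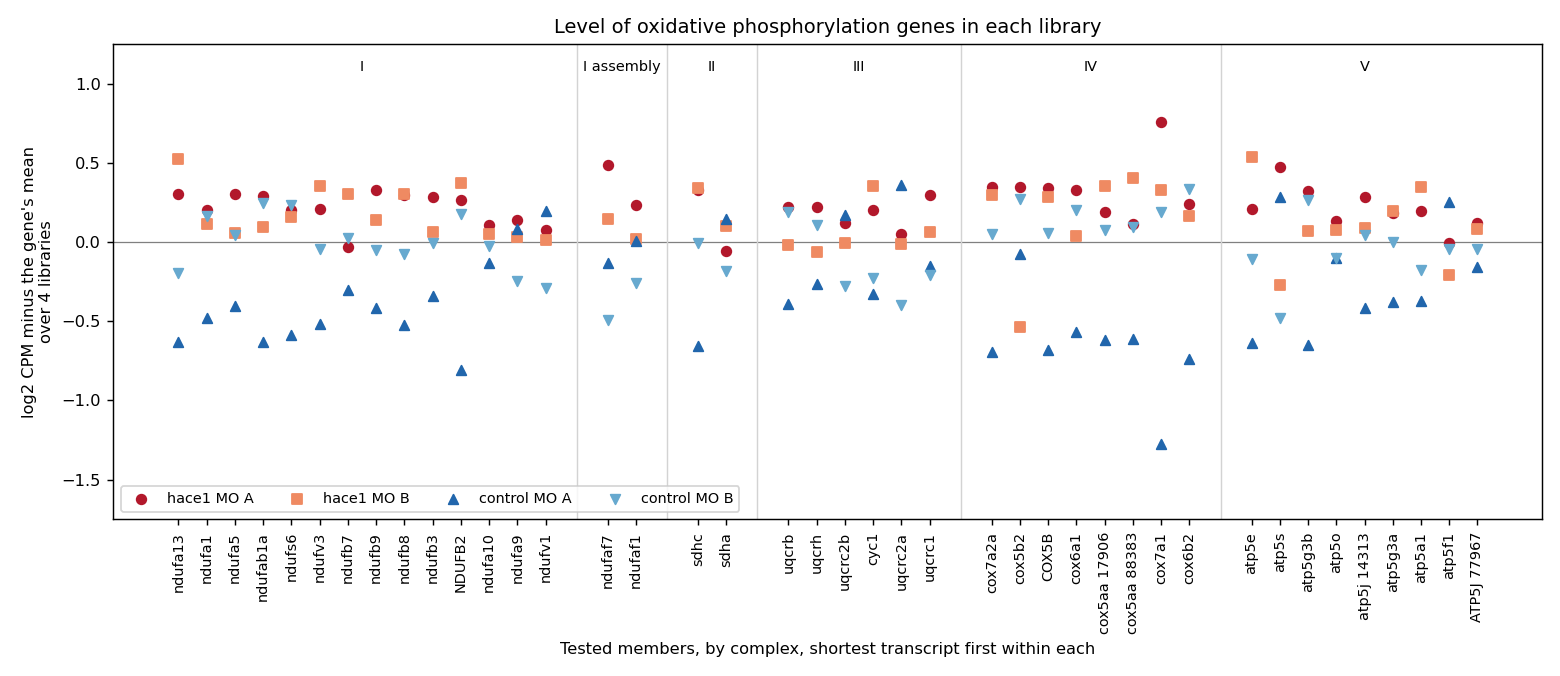
Log2 CPM of 41 of the 42 tested genes in each library, after subtracting the gene's mean over the 4 libraries, grouped by complex and ordered by exonic length within each. MO stands for morpholino. Control A (dark triangles) is the lowest library in 30 of the 42 genes, mostly the shorter ones, and the hace1 libraries lie near each other in most genes.

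Level per length was compared between genes as CPM per kilobase of exon. Atp5g3b stood highest at a mean of 1335 over the 4 libraries, followed by atp5a1 at 1033 and COX5B at 871. Atp5g3b stood above atp5a1 in every library, at 1614 and 1354 CPM per kilobase in hace1 morphants and 822 and 1551 in controls, where atp5a1 had 1162 and 1290 in hace1 morphants and 782 and 897 in controls. Atp5s, at 3.37 CPM per kilobase, and ndufaf7, at 5.93, stood lowest. The median over the tested genes was 147 CPM per kilobase for complex I, 66.9 for complex II, 189 for complex III, 310 for complex IV and 177 for complex V. The complex V median includes atp5s and the ATP5J locus ENSDARG00000077967, which stood lowest there at 3.37 and 22.7. The order of complexes III and V depends on them. The paralogue pairs were unequal. COX5B stood at 1044 CPM per kilobase in hace1 morphants and 698 in controls, against 8.50 and 9.42 for cox5b2. Cox7a2a stood at 471 in hace1 morphants and 312 in controls, against 26.8 and 13.8 for cox7a1. By contrast uqcrc2a, at 159 in hace1 morphants and 160 in controls, was within 2-fold of uqcrc2b, at 104 and 97.2.

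**Figure D3:**
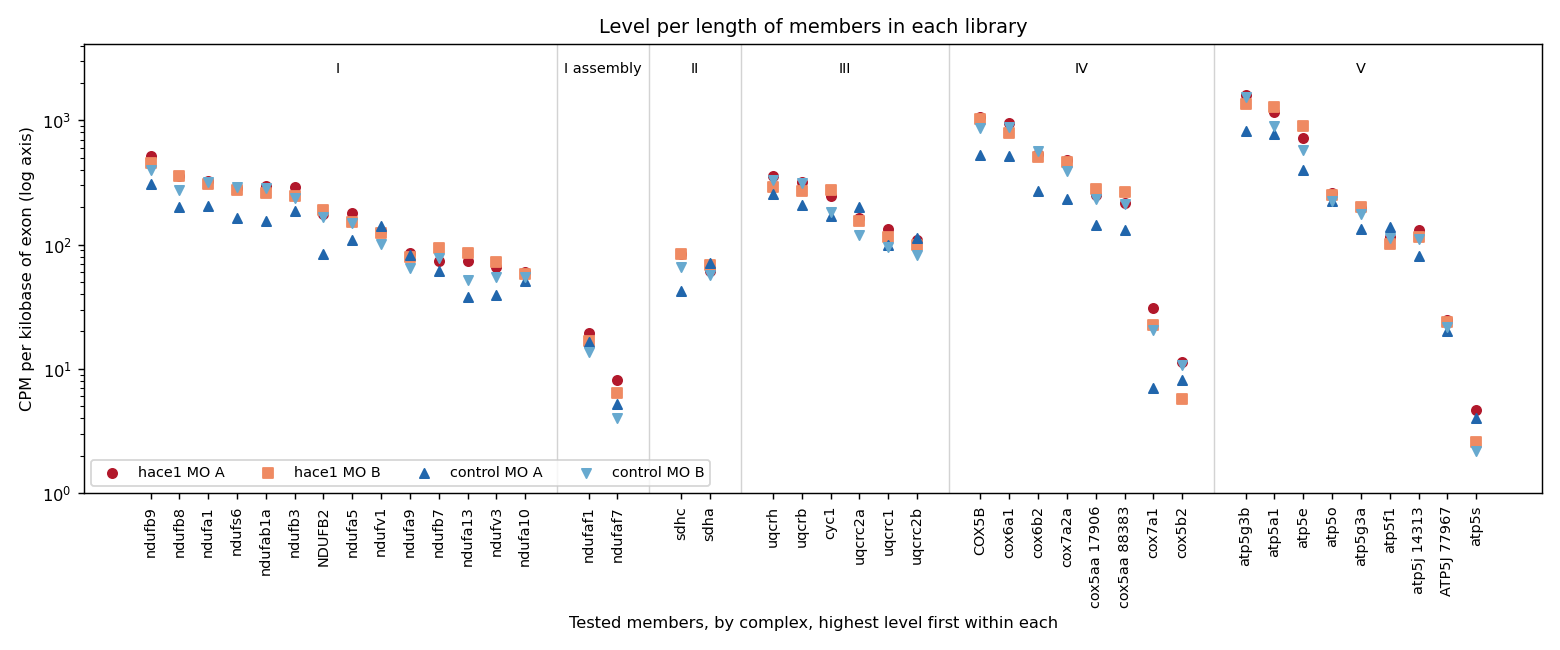
CPM per kilobase of exon (log axis) of 41 of the 42 tested genes in each library, grouped by complex and ordered from the highest mean to the lowest. Complex V spans from a few CPM per kilobase (atp5s) to the top of the axis (atp5g3b, atp5a1). Cox5b2 of complex IV and the complex I assembly factor ndufaf7 also lie low.

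The size of the difference depended on which control library was used. Control A was the lowest of the 4 libraries in 30 of the 42 genes, against 31.2% of all tested genes, while control B was lowest in 10, hace1 B in 2 and hace1 A in 0. The median difference in log2 CPM was 0.59 between the hace1 mean and control A and 0.20 between the hace1 mean and control B. Between libraries of one group, the median was 0.065 for hace1 A minus B and -0.37 for control A minus B. The gap between the controls was thus as large as the median fold change. Fitted without control A, limma-voom called 6 of 43 tested genes higher, where it called 7.33% of all tested genes higher, and the median log2 fold change of the oxidative phosphorylation genes was 0.21. The 6 were cyc1, atp5e, ndufaf7, uqcrc2a, ndufa13 and atp5a1. Without control B it called 25 of 42 higher, against 11.8% of all tested genes, and the median was 0.59. In such a fit the lone control library is assumed to vary like the hace1 pair, which were close together.

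Cyc1, atp5e, ndufa13 and atp5a1 were called higher against either control library alone, which is 4 of the 42 genes, against 3.81% of all genes tested in both fits. Both fits use the same hace1 libraries. For cyc1 the log2 fold change was 0.51 ± 0.15 without control A (limma-voom adjusted p = 0.00932) and 0.60 ± 0.16 without control B (adjusted p = 0.00153). For atp5a1 it was 0.46 ± 0.16 (limma-voom adjusted p = 0.0371) and 0.64 ± 0.17 (adjusted p = 0.00148). Without hace1 A or hace1 B none of the 4 was called, with limma-voom adjusted p of 0.433 to 0.701. In those fits the method called 9 and 6 of all tested genes higher. In complex IV the median log2 fold change was 0.17 over 9 genes without control A, against 0.91 over 8 genes without control B. Uqcrc2a, called without control A at 0.43 ± 0.15 (limma-voom adjusted p = 0.0338), had the opposite sign without control B, at -0.35 ± 0.16 (adjusted p = 0.0885).

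Transcript length went with the gap between the controls. A boundary of 1100 exonic bases, chosen after the values were seen, divided the genes into 25 short and 17 long ones. Among the short genes, control A was below control B in 24 and the lowest library in 23, with a median control A minus B of -0.64. Among the long genes control A was below control B in 7, with a median of 0.21. The hace1 mean differed from control A by a median of 0.82 in short genes and 0.21 in long genes, and from control B by 0.16 in short genes and 0.33 in long genes. The correlation of control A minus B with log2 exonic length was 0.64 (Pearson) and 0.64 (Spearman) over the 42 genes, which all come from the same libraries. Over all 10832 tested genes the Pearson value was 0.021. For hace1 A minus B it was 0.012 over the 42 genes and -0.15 over all tested genes, so length also went with that difference there. The log2 fold change itself had a Pearson value with length of -0.43 over the 42 genes and -0.12 over all tested genes. With a smooth fit on length removed from each library, limma-trend had 40 of the 42 above 0 and called 0. The median was 0.32, against 0.36 for limma-trend without that step. The fit was made over all tested genes, where the gap between the controls hardly went with length. It therefore cannot take out the gap seen in the 42 genes.

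The pattern of the short genes was shared in part by other short genes of high level. In the highest of 5 level classes (mean CPM of at least 68.1), which holds 33 of the 42 genes, the 157 other genes shorter than 1100 bases had a median control A minus B of -0.46, against -0.69 for the 19 oxidative phosphorylation genes there. Their median log2 fold change was 0.20, against 0.43 for the 19. Among longer genes of that level class, the median log2 fold change was 0.19 for 14 oxidative phosphorylation genes and 0.093 for 1977 others. Over all genes of that class, 63.1% had a log2 fold change above 0 and 36.7% had both hace1 libraries above both controls. Of its 33 oxidative phosphorylation genes, 32 and 19 did. Within these wide classes the genes were not matched in length or level. The difference between the oxidative phosphorylation genes and the others was not tested.

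**Figure D4:**
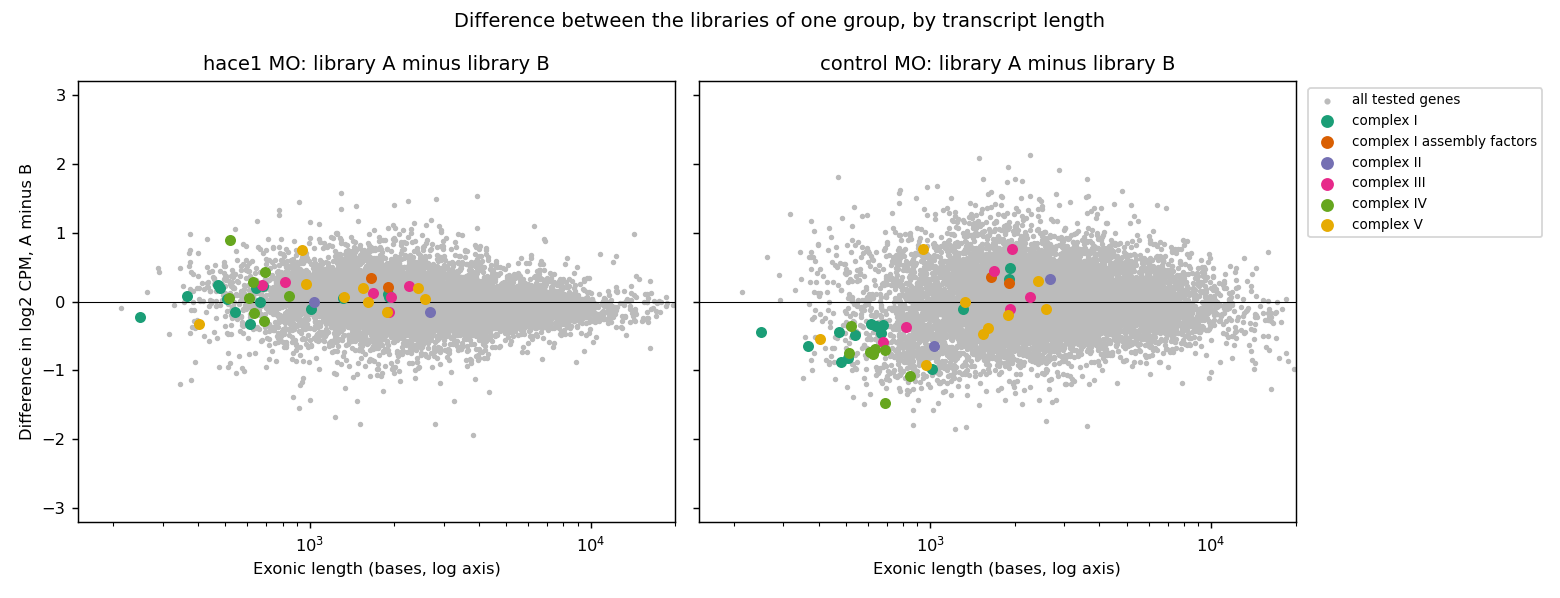
Difference in log2 CPM between the libraries of one group (left, hace1 A minus B; right, control A minus B) against exonic length on a log axis, with all tested genes in grey and 41 of the 42 oxidative phosphorylation genes coloured by complex. In controls, 24 of the 25 genes shorter than 1100 bases lie below 0, while in hace1 morphants the same genes lie on both sides of 0.

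The exon lines gave the same direction as the gene lines for most genes. Of 260 exon lines with a mean count of at least 30, 205 (78.9%) had a log2 difference above 0, with a median of 0.34. Some exons are listed more than once among these lines. The share over exon lines of all tested genes is not given here. Exon and gene lines come from the same libraries, so their likeness is not separate support. Exons beyond the midpoint of the transcript, towards the 3′ end, held a median of 56.7% and 54.9% of the exon counts in hace1 morphants, against 53.6% and 58.2% in controls, over the 23 oxidative phosphorylation genes with 1 transcript and at least 3 exons. Over 5663 tested genes of that kind it was 65.2% and 64.3% in hace1 morphants, against 61.0% and 64.2% in controls. Control A was lowest in both sets. Over the 17 oxidative phosphorylation genes of that kind shorter than 1100 bases the values were 56.7% and 55.7% in hace1 morphants, against 56.4% and 58.2% in controls, with hace1 B lowest. The part of this measure in the differences was not tested. In uqcrb 3 of 9 exon lines, and in sdha 3 of 14, were above 0, although both gene lines were above it.

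For 18 genes the files split the count among 60 transcripts. The largest differences in mean share were in uqcrb, cox7a1 and atp5f1. The uqcrb transcript uqcrb-003 made up 74.5% and 82.4% of its gene in hace1 morphants, against 32.7% and 76.1% in controls. The cox7a1 transcript cox7a1-001 made up 74.7% and 63.7% of its gene in hace1 morphants, against 99.2% and 82.2% in controls. The atp5f1 transcript atp5f1-201 made up 72.5% and 72.0% in hace1 morphants, against 92.4% and 76.9% in controls. For all 3, control A lay farthest from the others. These shares are the authors' estimates and were not tested.

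Genes that work beside the complexes were counted in the same way. Limma-voom called none of the 11 tested genes of the tricarboxylic acid cycle and pyruvate dehydrogenase, although 10 were above 0, 5 were higher at an unadjusted p below 0.05 and the median was 0.27. Pdhx, for a binding component of pyruvate dehydrogenase, was nearest, at 209 and 246 CPM in hace1 morphants, against 100.0 and 155 CPM in controls (0.87 ± 0.21, limma-voom adjusted p = 0.0513). Of 18 assembly and stability factors outside the symbol rule, 14 were above 0, 3 were higher at an unadjusted p below 0.05 and limma-voom called 0, with a median of 0.18. Cox17, a copper chaperone of complex IV, had the smallest p there, at 91.4 and 76.1 CPM in hace1 morphants, against 31.8 and 64.1 CPM in controls. The 10 electron carriers and feeders had a median of 0.20, the 13 import genes 0.17 and the 7 nucleotide and phosphate carriers and porins 0.34, and limma-voom called 0 in each. At an unadjusted p below 0.05 there were 0, 4 and 2 higher in these lists, and 0, 0 and 1 lower. Over all tested genes 10.7% were higher at that p, and limma-voom called 1.38% as higher. In lists this small, 0 called says little. Symbols that have since been given to this family but fell outside the rule were USMG5 (0.52), C24H11orf65 (0.40) and atpif1a (0.035), on the log2 scale.

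Other housekeeping groups were set beside them. The 24 tested mitochondrial ribosomal protein genes had a median of 0.38, close to that of the oxidative phosphorylation genes. Of the 24, 22 were above 0. Both hace1 libraries lay above both controls in 16, against 26.7% of all tested genes, and below both in 1, against 26.9%. At an unadjusted p below 0.05, 11 were higher and 0 lower, against 10.7% of all tested genes higher. Limma-voom called 2 as higher, against 1.38% of all tested genes. Mrps18a had 70.9 and 84.6 CPM in hace1 morphants, against 41.3 and 48.9 CPM in controls (0.78 ± 0.17, limma-voom adjusted p = 0.0436). Mrpl39 had 197 and 181 CPM in hace1 morphants, against 101 and 124 CPM in controls (0.76 ± 0.17, limma-voom adjusted p = 0.0452). The 60 cytosolic ribosomal protein genes had 52 above 0 and a median of 0.18. Both hace1 libraries lay above both controls in 29 of the 60 and below both in 1. The 20 glycolysis genes had 11 above 0 and a median of 0.053, with 8 above both controls in both hace1 libraries and 5 below both. Limma-voom called 0 in both lists, with 10 and 4 higher and 0 lower at an unadjusted p below 0.05.

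Of all tested genes, 22.4% had an unadjusted p below 0.05 and limma-voom called 2.76%, in either direction. Among 9 genes for mitochondrial genome upkeep and for transcription factors of mitochondrial genes, the median was 0.13 and limma-voom called 0, with 1 lower at an unadjusted p below 0.05. Nrf1, a transcription factor known to bind promoters of many of these genes in mammals, was below both controls, and was singled out after its values were seen. It had 65.2 and 73.4 CPM in hace1 morphants, against 96.7 and 92.4 CPM in controls, and its log2 fold change was -0.45 ± 0.16 (limma-voom adjusted p = 0.131). Gabpa, for another such factor, had 73.7 and 89.2 CPM in hace1 morphants, against 74.7 and 73.9 CPM in controls. Esrra, for an oestrogen-related receptor that acts on these genes in mammals, had 6.31 and 6.79 CPM in hace1 morphants, against 12.4 and 6.75 CPM in controls.

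Markers of several cell types also differed between the libraries. The 11 skeletal muscle markers above 0, of 17 listed, summed to 114795 to 124080 CPM in hace1 morphants and 78845 to 102312 CPM in controls. All 11 had a log2 fold change above 0 with a median of 0.47, and control A was the lowest library in 10 of them. Acta1b, ckma, myod1, myog, pvalb1 and tnni2a.4 were at 0. The 4 of 10 cardiac markers above 0 summed to 65.5 to 71.7 CPM in hace1 morphants and 45.3 to 55.1 CPM in controls, and control A was lowest in all 4, while actc1a, cmlc1, myh6, nkx2.5, nppa and vmhc were at 0. The 6 of 10 erythroid markers above 0 summed to 8411 to 10321 CPM in hace1 morphants and 6984 to 8509 CPM in controls, with hbae1, hbbe2 and hbbe3 among those at 0.

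The 9 of 12 neuron markers above 0 ran the other way in sum, with snap25b, tuba1c and vamp2 at 0. They summed to 1509 to 1601 CPM in hace1 morphants and 1602 to 2066 CPM in controls. Hace1 B and control A were nearly equal in this sum. The median log2 fold change of the 9 was -0.26, and 1 of them had a value above 0. The 7 of 14 photoreceptor markers above 0 were also lower in sum, with crx, gnat1, opn1lw1, opn1sw1, opn1sw2 and rho at 0. They summed to 21.8 to 23.3 CPM in hace1 morphants and 39.7 to 48.2 CPM in controls. Of the 7, 1 had a log2 fold change above 0. The 4 of 5 hatching gland markers above 0 summed to 725 to 777 CPM in hace1 morphants and 278 to 377 CPM in controls, with a ctslb locus at 0. The part of these cell types in the differences of the oxidative phosphorylation genes was not tested.

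**Figure D5:**
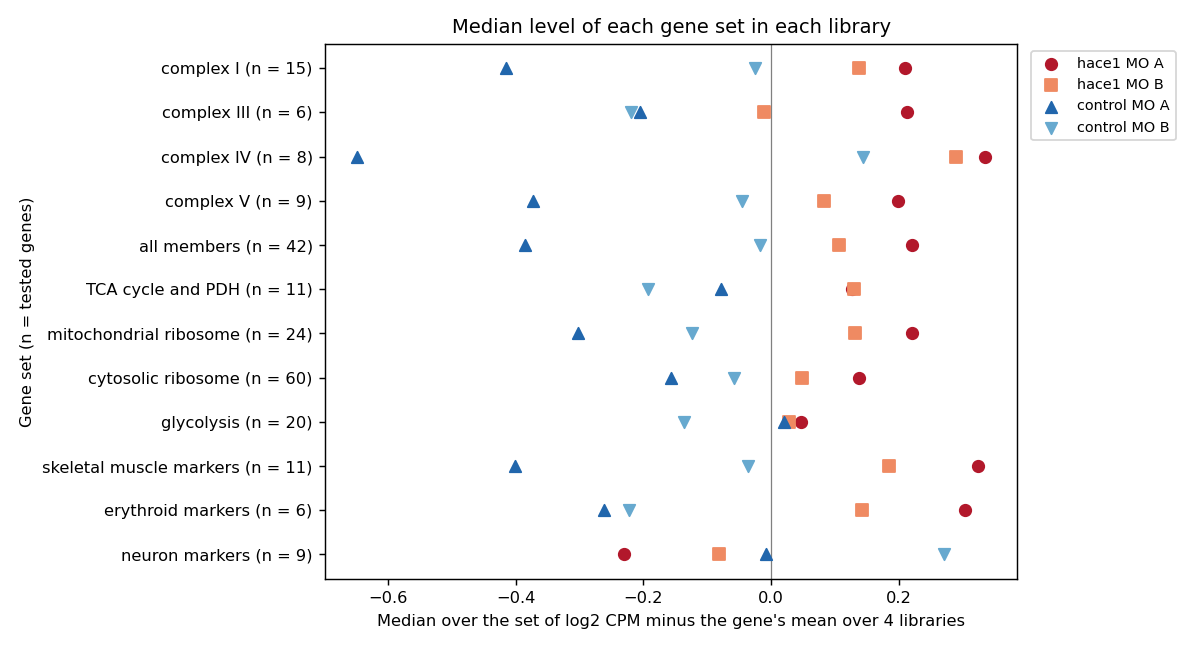
Median over each gene set of log2 CPM minus the gene's mean over the 4 libraries, 1 symbol per library, with the number of tested genes in the label. In complexes I, IV and V, in all members and in the mitochondrial ribosome, the hace1 libraries are highest, then control B, then control A. The cytosolic ribosome, skeletal muscle markers and erythroid markers have the same order. In erythroid markers the controls are close, at -0.26 for A and -0.22 for B. In neuron markers both hace1 libraries lie below both controls.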

How the data were processed

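Per the submitters' processing notes, the processing named Bowtie2 2.0.2, TopHat2 2.0.6, cutadapt 1.2.1 and DESeq, with Zv9 as the genome build. Points not given in the sources used here include the program that counted reads, whether it used strand, and the annotation release. The deposited files hold the authors' estimated counts, which need not be whole, on gene, exon and transcript lines, and a table of log2 values per gene, centred on each gene. Members were found by symbol in that table, and 92 of the 105 had a current symbol in the gene name table given. Counts were scaled by an own version of the trimmed mean of M values (trimming 30% of log ratios and 5% of levels). The test covered 10832 genes, those with at least 15 counts in all and, in 2 or more libraries, a CPM of at least that of a count of 10 in a library of median size. Limma-voom (limma 3.58.1, R 4.3.3) used the group as the only term, with calls made at adjusted p below 0.05. The count tests that fit raw counts were not used. The values are estimated counts, which need not be whole. Differences between libraries used log2 of CPM plus 0.5. Depth was 5192490 to 10413981 counts per library.

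The genes, lists and settings were chosen with earlier results of these data known, in which oxidative phosphorylation genes were already higher. Values in every library were given, per complex, for the up to 4 genes of smallest p, the up to 2 of highest level per length, paralogue pairs and the highest and lowest fold change. Further genes outside these rules were given too, among them ndufv1, NDUFB2, cox6b2, atp5o, atp5f1 and atp5s. From the comparison lists, called genes were named, and a few others (pdhx, cox17, gabpa, esrra and further members) were added after their values were seen. The labels do not say whether the letters A and B pair the libraries. Over 10832 tested genes, the A minus B differences of the groups correlated at 0.010, which cannot settle it. The alternatives were other scalings, filters, a moderated test on log2 CPM, library quality weights, the authors' log2 values and summed exon lines. A length fit, a replicate block, the summed cox5aa copies and each library left out were also used. Promoters and proteins were not used here. The values of 1 tested gene are not reported here, and it stayed in the tests and counts.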

Additional observations from a re-analysis of the deposited data

How the results depend on the processing

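In 648 of 712 results for a single gene under another setting, direction and side of the threshold held; 42 were newly called and 22 turned. Library quality weights called 3 of the 42 genes, all higher, with 279 of all tested genes higher and 370 lower. The replicate letter as a block called 8 higher, with 423 and 491 of all tested genes, against 149 and 150 without it. Whether the letters pair the libraries is not known. With each library left out, 0 to 25 were called and the median was 0.21 to 0.59. The range was 0.18 to 0.63 for complex I, 0.27 to 0.62 for its assembly factors, 0.28 to 0.42 for complex II, 0.063 to 0.37 for complex III, 0.17 to 0.91 for complex IV and 0.19 to 0.56 for complex V. Scaling by total counts shifted the median of all tested genes to -0.14. It left 36 of the 42 above 0, with medians of 0.19 for complex II, 0.025 for III and 0.22 for V, and turned uqcrc2b (-0.048), sdha (-0.12), ndufv1 (-0.070) and uqcrc2a (-0.13). It called 105 of all genes higher and 523 lower. Upper-quartile scaling turned uqcrc2a (-0.0055) and called 87 and 110. Without a filter sdhda entered, and complex II had 0.049. With a library left out, the log2 fold change ran between -0.045 and 0.82 for ndufab1a, -0.047 and 0.76 for ndufs6, -0.16 and 0.34 for ndufv1, -0.0054 and 0.34 for ndufa9, -0.14 and 0.21 for sdha, -0.12 and 0.34 for uqcrc2b, -0.35 and 0.43 for uqcrc2a, -0.085 and 0.48 for uqcrb, -0.019 and 0.33 for uqcrh, -0.74 and 0.25 for cox5b2, -0.12 and 0.94 for cox6b2, -0.011 and 0.74 for cox6a1, -0.063 and 0.84 for atp5g3b and -0.25 and 0.69 for atp5s. The authors' log2 values called 1 gene of all tested, and leaving out hace1 A or B left 9 and 6 higher and 1 and 0 lower, so a count of 0 there says little. For the other changes the cause was not tested. There are only 2 libraries per group, and the part of the lower depth of control A was not tested.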
